A study of Mus musculus with 2 samples.

Results

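Granzymes are serine proteases that cytotoxic lymphocytes store in secretory granules and release onto target cells. The genes described here are 6 granzyme genes (Gzma, Gzmb, Gzmc, Gzmf, Gzmk and Gzmm) and 4 genes that serve the same granules (Prf1, Srgn, Serpinb9 and Nkg7). They were chosen by symbol, and they are 10 of the 46398 gene symbols in each library. Effector regulatory T cells (Treg cells, CD4 T cells that express Foxp3 and restrain other immune cells) were sorted as CD4+CD25+Cd62LlowCD44high cells positive for Foxp3gfp, and their poly(A) RNA was sequenced. Each genotype, Nrn1-/- and Nrn1+/-, gave 1 library, both from C57BL/6 mice on the Foxp3DTRgfp background, which places green fluorescent protein under Foxp3 in both genotypes. The Nrn1+/- library carries a title that calls it wild type, while its genotype label is heterozygous, so the contrast is null against heterozygous. No source used here gives the number of mice per library or their age. With 1 library per genotype no difference has a replicate check and no p-value is given. In these bulk samples more RNA per cell and more cells of a type cannot be told apart.

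In a cytotoxic granule, perforin forms pores through which granzymes reach the cytosol of the target cell, and serglycin, a proteoglycan, holds the positively charged proteases in the granule core. Granzyme B cuts after aspartate and activates caspases, while granzyme A is a tryptase. Treg cells are known to express granzyme B when activated and can use it, with or without perforin, to kill other lymphocytes.

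Nrn1, the deleted gene, stood at 4.62 FPKM in Nrn1-/- and 66.5 FPKM in Nrn1+/- cells (FPKM counts sequenced fragments for each kilobase of transcript at a common depth). All 8 Treg markers were detected, led by Il2ra, which encodes CD25, at 564 FPKM in Nrn1-/- and 601 FPKM in Nrn1+/- cells. All 8 were lower in Nrn1-/- cells, none by 1.5-fold, whereas 52.3% of all genes averaging 1 FPKM or more were higher. The median log2 ratio of the 8 markers was -0.30, and Foxp3 stood at 195 FPKM in Nrn1-/- and 257 FPKM in Nrn1+/- cells. In low genes with a single annotated transcript, values fell within 0.1 of whole multiples of 1 step for 97.8% of genes in each library. The step was chosen to make this share largest, whereas the 20% due to chance holds for a step fixed in advance. Each transcript length was first shortened by a number of bases fixed for the library. By that step, a single fragment of a transcript with 1 kb left equals 0.0256 FPKM in Nrn1-/- and 0.0194 FPKM in Nrn1+/- cells. Fragment numbers and 95% intervals below rest on it, use the shortest coding transcript of each gene, and cover counting error only.

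The order of the granule genes by level was the same in both libraries. Srgn, which encodes serglycin, was the highest, at 657 FPKM in Nrn1-/- and 879 FPKM in Nrn1+/- cells. It ranked 127 among protein-coding genes in Nrn1-/- and 100 in Nrn1+/- cells. Gzmb came next, ahead of Nkg7, a granule membrane protein needed for full degranulation. Serpinb9, the intracellular inhibitor of granzyme B, and Gzmc followed, and their counting intervals overlapped in each library. Gzma and Prf1, the perforin gene, came below them. Gzmm, Gzmf and Gzmk stayed under 1 FPKM in both libraries. The intervals of Gzmf and Gzmk, the last of the order, also overlapped in each library, whereas every other pair of neighbours was separated by more than counting error.

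**Figure D1:**
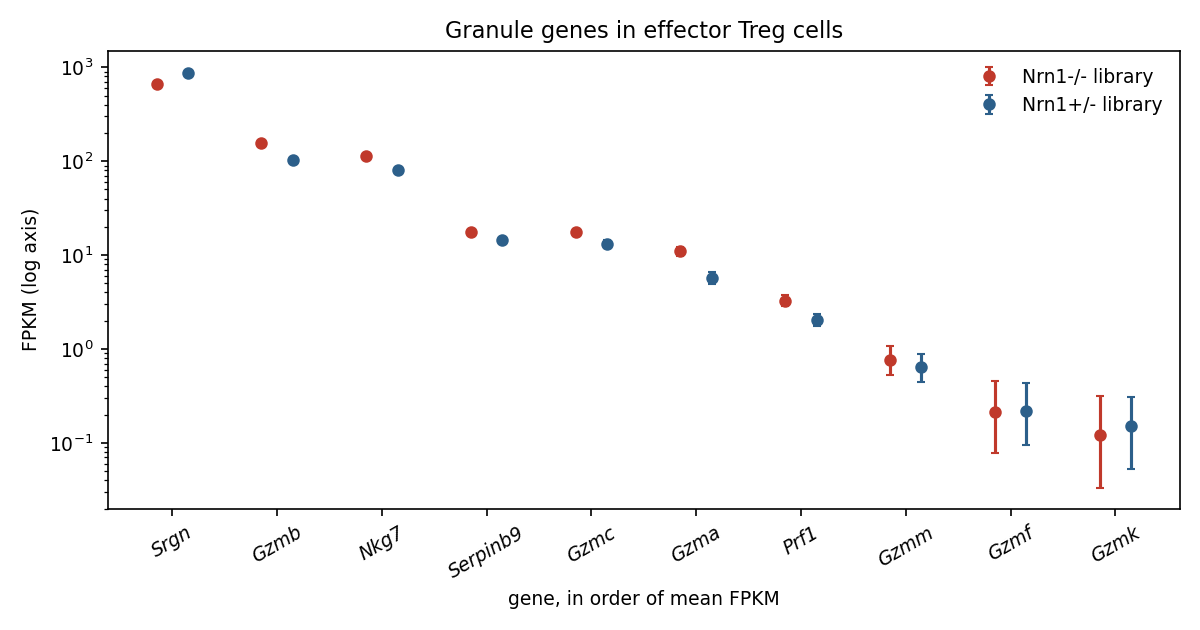
FPKM of the 10 granule genes on a log axis, with the Nrn1-/- library in red on the left and the Nrn1+/- library in blue on the right of each gene; bars are 95% counting intervals. Srgn is the highest in both libraries and is lower in the Nrn1-/- library, the next 6 genes are higher in it, and the intervals of Gzmm, Gzmf and Gzmk overlap between libraries.

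Granzyme B dominated the granzymes of these cells. Gzmb (GRCm38 chromosome 14, 56258838 to 56262260, minus strand) had 154.6 FPKM in Nrn1-/- and 104.1 FPKM in Nrn1+/- cells. These values rest on 7523 fragments in Nrn1-/- and 6552 in Nrn1+/- cells. The level was 1.48-fold higher in the Nrn1-/- library (interval 1.44 to 1.54), a log2 ratio of 0.57 on the log2(FPKM + 1) scale used for all log2 ratios here. Gzmb made up 83.8% of the summed granzyme FPKM in Nrn1-/- and 84.0% in Nrn1+/- cells. The sum over 10 granzyme genes was 184 FPKM in Nrn1-/- and 124 FPKM in Nrn1+/- cells, so the total differed while the part taken by Gzmb was nearly equal.

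Gzma (chromosome 13, 113093825 to 113100981, minus strand) had the largest ratio of the granule genes. It stood at 11.01 FPKM in Nrn1-/- and 5.73 FPKM in Nrn1+/- cells, 296 against 196 fragments. That was 1.92-fold higher (interval 1.598 to 2.31), a log2 ratio of 0.83, and 96.9% of the genes tested had a lower ratio. Its interval did not overlap that of Gzmb. Gzma therefore took a larger part of the granzyme FPKM, 5.97% in Nrn1-/- and 4.63% in Nrn1+/- cells. The ratio of Gzmb to Gzma was 14.04 in Nrn1-/- and 18.2 in Nrn1+/- cells. Such ratios within a library do not depend on how the libraries were scaled to each other.

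Prf1 (chromosome 10, 61297833 to 61304680, plus strand) was low, at 3.28 FPKM in Nrn1-/- and 2.06 FPKM in Nrn1+/- cells, or 228 against 186 fragments. The level was 1.59-fold higher (interval 1.30 to 1.94), but its log2 ratio of 0.48 lies below 1.5-fold because the pseudocount of 1 FPKM shrinks the ratio of low genes. Prf1 and Gzmb differed by a similar factor: the FPKM of Gzmb was 47.2 times that of Prf1 in Nrn1-/- and 50.5 times that of Prf1 in Nrn1+/- cells. Nkg7 (chromosome 7, 43437073 to 43438249, plus strand) had 114.6 FPKM in Nrn1-/- and 81.5 FPKM in Nrn1+/- cells. It was 1.41-fold higher (interval 1.32 to 1.49), and its ratio to Gzmb was 0.741 in Nrn1-/- and 0.783 in Nrn1+/- cells.

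Gzmc, a granzyme of activated rodent lymphocytes, is the neighbour of Gzmb on chromosome 14 (56231441 to 56234656, minus strand). It had 17.5 FPKM in Nrn1-/- and 13.1 FPKM in Nrn1+/- cells, 1.33-fold higher (interval 1.17 to 1.52). The part of granzyme FPKM it held was 9.48% in Nrn1-/- and 10.6% in Nrn1+/- cells.

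Serpinb9 (chromosome 13, 33003250 to 33017957, plus strand) protects cells that make granzyme B from their own protease. Its level was 17.7 FPKM in Nrn1-/- and 14.5 FPKM in Nrn1+/- cells, 1.22-fold higher (interval 1.15 to 1.29). This excess was smaller than that of its target, so the ratio of Gzmb to Serpinb9 was 8.75 in Nrn1-/- and 7.19 in Nrn1+/- cells.

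Srgn (chromosome 10, 62493833 to 62527451, minus strand) was the 1 gene above 1 FPKM that was lower. At 657 FPKM in Nrn1-/- and 879 FPKM in Nrn1+/- cells it was 1.34-fold lower (interval 1.29 to 1.39). A share of 11.4% of the genes tested had a lower log2 ratio than its -0.42. The ratio of Srgn to Gzmb was 4.25 in Nrn1-/- and 8.44 in Nrn1+/- cells. Against the other 9 granule genes together, Srgn had 2.06 times their summed FPKM in Nrn1-/- and 3.96 times it in Nrn1+/- cells.

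Gzmm, Gzmf and Gzmk could not be told apart between genotypes at this depth. Gzmm, a protease that cuts after methionine and is known from natural killer (NK) cells, was at 0.764 FPKM in Nrn1-/- and 0.640 FPKM in Nrn1+/- cells (33 against 35 fragments, ratio interval 0.718 to 1.98). Gzmf was at 0.214 FPKM in Nrn1-/- and 0.221 FPKM in Nrn1+/- cells (6 against 8 fragments, interval 0.277 to 3.18). For Gzmk, a tryptase known from memory CD8 T cells, the values were 0.122 FPKM in Nrn1-/- and 0.152 FPKM in Nrn1+/- cells (4 against 6 fragments, interval 0.166 to 3.37). An antisense gene, Gm4022, overlaps exons of Gzmf in the annotation and is not analysed here, and no source used here says whether counting used strand.

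Set against all genes, 1 of the 7 granule genes that averaged 1 FPKM or more was at least 1.5-fold higher on the log2 scale, namely Gzma, and none was at least 1.5-fold lower. All 7 exceeded 1 FPKM in each library. Among the 12344 genes to pass the same filter, 7.5% reached the upper limit and 5.27% the lower one. Gzmb, with a log2 ratio of 0.57, lay just short of the 1.5-fold limit. At a limit of 2-fold none of the 7 was higher and none lower, against 1.98% and 1.11% of all genes. With a pseudocount of 0.1 FPKM, 2 of the 7 (Gzma and Prf1) were at least 1.5-fold higher, against 9.18% of all genes. Higher by any amount were 6 of the 7, against 52.3% of all genes tested. Their median log2 ratio was 0.48, against 0.02 over all genes tested. That median was 0.36, against -0.09 over all genes, with equal sums over protein-coding genes, and 0.20, against -0.25, at a sum of 1000000 per library. At that sum 3.27% of all genes passed 1.5-fold upwards and 17.6% downwards. The 10 genes were picked with earlier results of these libraries known, so these counts are a description.

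**Figure D2:**
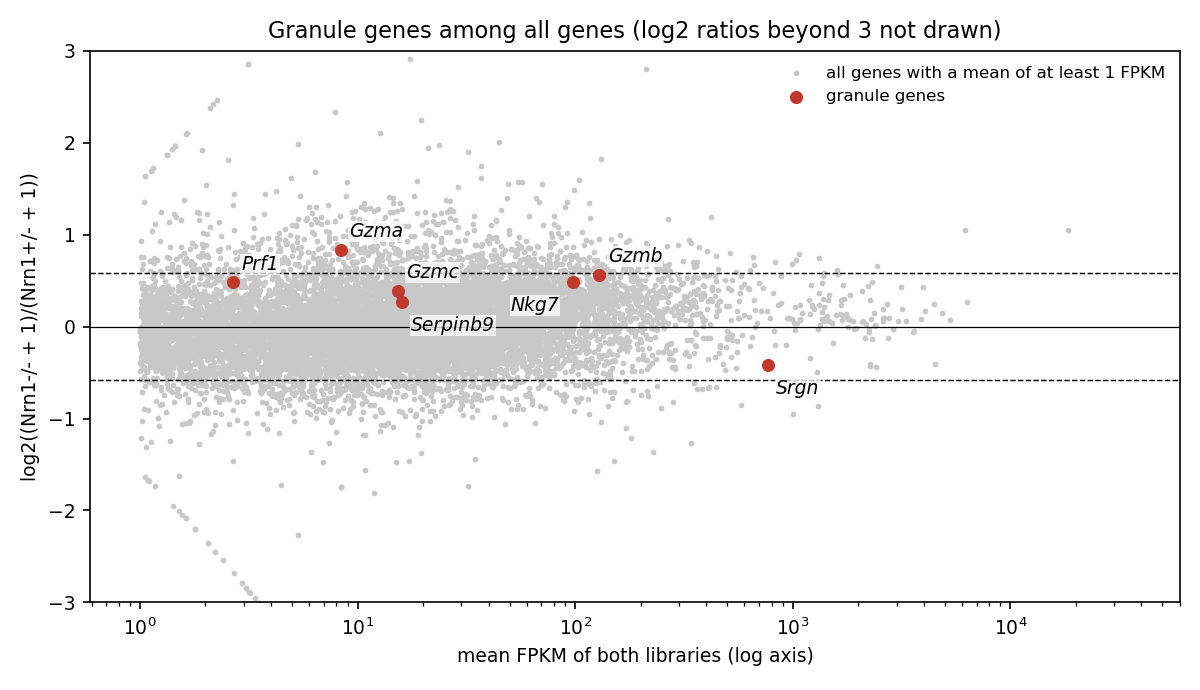
Log2 ratio of the Nrn1-/- over the Nrn1+/- library against mean FPKM (log axis) for all 12344 genes averaging 1 FPKM or more in grey and the 7 granule genes above that level in red; dashed lines mark 1.5-fold. Gzma alone lies above the upper line, and Srgn alone lies below 0.

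The differences depended on scaling. With FPKM brought to a total of 1000000 per library, the median log2 ratio of all genes tested moved to -0.25, and that of Serpinb9 to -0.01 and of Gzmm to -0.02, each with a change of sign. Relative to that median, both still lay higher. Gzma kept a log2 ratio of 0.60 and stayed past 1.5-fold, Gzmb had 0.28, Nkg7 0.20 and Gzmc 0.12, and Srgn, at -0.71, was then beyond 1.5-fold lower.

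**Figure D3:**
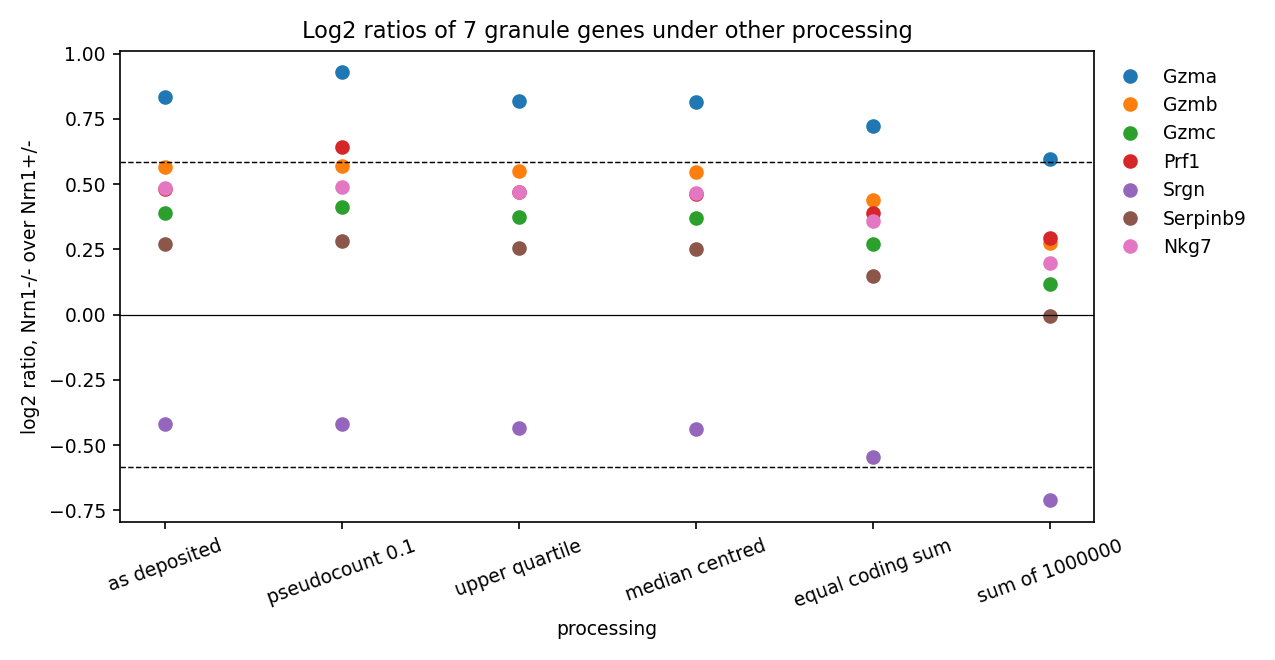
Log2 ratio of the Nrn1-/- over the Nrn1+/- library for 7 granule genes with the values as deposited and under 5 alternatives; dashed lines mark 1.5-fold. Gzma stays highest and Srgn lowest in every column, and Serpinb9 lies at -0.01 at a sum of 1000000.

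On chromosome 14, level differed sharply between neighbouring genes of common origin. The cluster holds 7 granzyme genes whose starts span 142 kb. Their order is Gzmb, Gzmc, Gzmf, Gzmn, Gzmg, Gzmd and Gzme, followed by mast cell protease genes. Only Gzmb and Gzmc exceeded 1 FPKM. Gzmc had 81.6 times the FPKM of Gzmf in Nrn1-/- and 59.2 times in Nrn1+/- cells, although Gzmf lies next to it. Gzmn and Gzmg were listed at 0 in both libraries, and at 3 fragments this allows Gzmg up to 0.107 FPKM in Nrn1-/- and 0.0839 FPKM in Nrn1+/- cells. Gzmd and Gzme stood at 0.132 and 0.139 FPKM in the Nrn1-/- library, on 4 fragments each, and were listed at 0 in the Nrn1+/- library. Their shortest coding transcripts are 94.9% identical, so the same fragments may have counted for both. The 8 other coding genes of the stretch, all proteases of mast cells or other myeloid cells, reached at most 0.111 FPKM in either library.

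**Figure D4:**
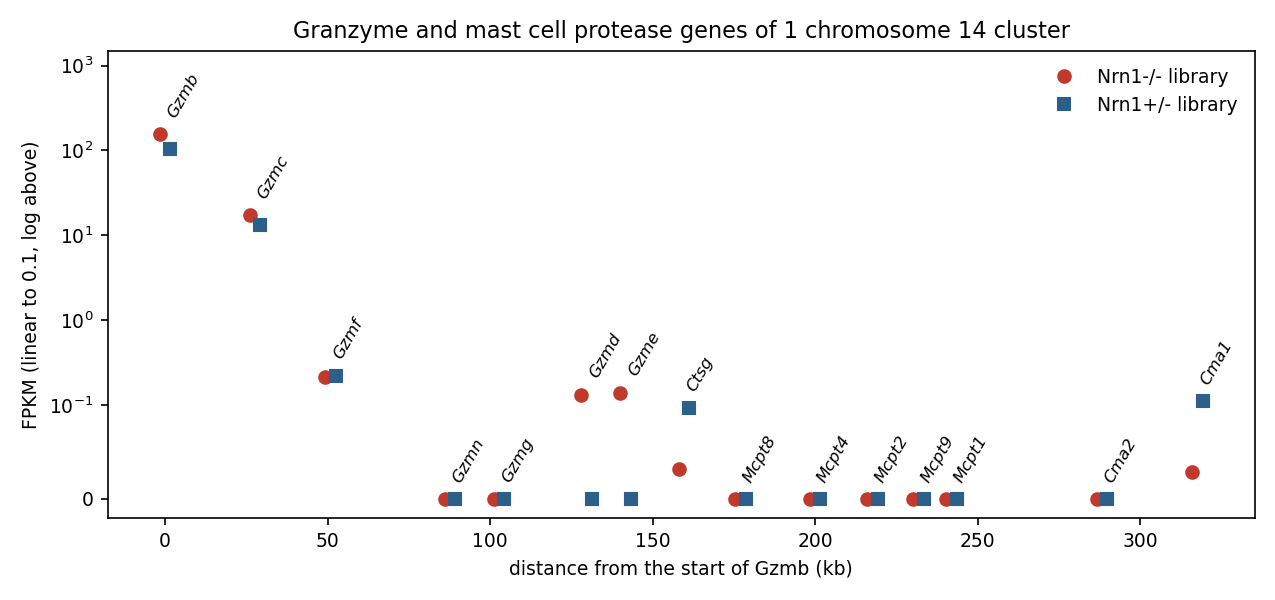
FPKM (linear up to 0.1, logarithmic above) of the protein-coding genes of the granzyme cluster against distance from the start of Gzmb in kb, with the Nrn1-/- library as red circles on the left and the Nrn1+/- library as blue squares on the right of each gene. Gzmb and Gzmc lie above 10 FPKM, Gzmf near 0.2 FPKM, and the remaining genes at or below 0.139 FPKM.

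Near-identical copies limit some of these values. The 50-base windows searched were those of the shortest coding transcript of each gene. Of these, 19.4% for Gzmf occur in transcripts of Gm4022, Gzmd or Gzmg, against 4.14% shared with other genes for Gzmc. None of the windows of Gzmb, Gzma, Gzmk, Gzmm, Prf1, Srgn or Nkg7 occurs in another annotated gene. For Srgn, with 6 annotated transcripts, only the 346 bases of its shortest coding transcript were searched. For Serpinb9 0.388% of windows were shared, with Serpinb9b.

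The 250 bases upstream of the annotated start are shown for 5 of the genes, because Gzmb, Gzmc and Gzmf are neighbours at very different levels and because Gzma and Prf1 had the largest FPKM ratios. They come from RefSeq on GRCm38.p6 and read 5′ to 3′ towards the start. RefSeq starts can differ from the GENCODE gene positions given above. For Gzmb the window reaches down to 56262335, while the GENCODE gene reaches up to 56262260. The windows of Gzmk and Serpinb9 and the inner windows of Srgn and Gzmm, none of them shown, lie inside their GENCODE genes. Capitals mark short words that are binding motifs of lymphocyte transcription factors, searched on both strands: TGANTCA (AP-1, the motif of factors such as Batf), TGACGTCA (the cyclic AMP response element), TGTGGT (RUNX) and ACACCT (a core of T-box factors such as Tbx21). No match in the sequences shown overlaps another. The motifs were chosen after these sequences had been seen. The windows are chr14:56262335-56262584 for Gzmb, chr14:56234658-56234907 for Gzmc, chr14:56211408-56211657 for Gzmf and chr13:113100982-113101231 for Gzma, all on the minus strand, and chr10:61297586-61297835 on the plus strand for Prf1.
Gzmb: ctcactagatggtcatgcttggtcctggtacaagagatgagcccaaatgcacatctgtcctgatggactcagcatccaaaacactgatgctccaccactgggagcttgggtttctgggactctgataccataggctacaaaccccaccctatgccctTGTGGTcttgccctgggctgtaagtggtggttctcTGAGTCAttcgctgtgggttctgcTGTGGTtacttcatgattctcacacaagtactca
Gzmc: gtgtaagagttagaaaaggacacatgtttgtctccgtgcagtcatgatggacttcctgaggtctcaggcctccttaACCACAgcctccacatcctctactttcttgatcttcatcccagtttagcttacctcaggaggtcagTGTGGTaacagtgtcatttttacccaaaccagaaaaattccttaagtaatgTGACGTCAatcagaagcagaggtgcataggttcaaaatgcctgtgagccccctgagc
Gzmf: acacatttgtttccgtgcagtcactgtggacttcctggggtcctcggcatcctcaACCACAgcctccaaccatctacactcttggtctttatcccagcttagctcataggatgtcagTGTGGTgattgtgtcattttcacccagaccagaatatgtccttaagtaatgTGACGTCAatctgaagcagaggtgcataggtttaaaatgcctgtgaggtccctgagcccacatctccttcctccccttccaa
Gzma: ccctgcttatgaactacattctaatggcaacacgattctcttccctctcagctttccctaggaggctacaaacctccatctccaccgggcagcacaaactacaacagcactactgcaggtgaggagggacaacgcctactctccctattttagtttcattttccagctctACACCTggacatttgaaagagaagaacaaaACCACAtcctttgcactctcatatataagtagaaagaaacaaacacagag
Prf1: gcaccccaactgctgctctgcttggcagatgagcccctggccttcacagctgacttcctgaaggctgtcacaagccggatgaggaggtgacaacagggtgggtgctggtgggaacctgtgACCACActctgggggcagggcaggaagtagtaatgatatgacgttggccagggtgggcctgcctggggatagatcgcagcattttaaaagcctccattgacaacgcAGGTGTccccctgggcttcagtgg

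The windows of Gzmc and Gzmf were 85.8% identical over 225 aligned bases and held the same words, a cyclic AMP response element and 2 RUNX words, while their levels were as far apart as given above. That of Gzmb was 63.4% identical to Gzmc, a value near the 59.7% between Gzmb and Gzma, which lie on different chromosomes. Gzmb was the 1 granule gene with an AP-1 word, 58 bases before the RefSeq start, against 6.75% of all RefSeq promoter windows of this length. RUNX words occurred in 8 of 12 windows of the 10 genes (Srgn and Gzmm have 2 windows each), against 14.05% of all windows. For Srgn the word lies only in the window inside its GENCODE gene, not in the outer one. T-box words occurred in 4 of the 12, those of Gzma, Gzmk, Prf1 and Nkg7, against 11.8%. Because Gzmb, Gzmc and Gzmf lie in 1 cluster of related genes, their windows are not separate cases. A word in a window is a description of the letters and not a binding site.

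The list of 13 transcription regulators linked to granule genes includes T-box, RUNX and AP-1 factors and others that do not bind these motifs. In Nrn1-/- cells 8 were higher, against 52.3% of all genes, and 5 lower, and the median log2 ratio was 0.17. The 5 lower, none by 1.5-fold, were Stat4, Nfil3, Stat5b, Bhlhe40 and Id2. Stat4 had 22.7 FPKM in Nrn1-/- and 31.9 FPKM in Nrn1+/- cells. For Stat5b the values were 71.6 FPKM in Nrn1-/- and 84.8 FPKM in Nrn1+/- cells. Tbx21, the T-box factor T-bet and an activator of Gzmb and Prf1 in cytotoxic T cells, was the 1 of 13 at least 1.5-fold higher, against 7.5% of all genes. It stood at 66.5 FPKM in Nrn1-/- and 32.6 FPKM in Nrn1+/- cells, 2.04-fold higher (interval 1.96 to 2.13). Eomes, the related factor of CD8 T and NK cells, was at 3.43 FPKM in Nrn1-/- and 2.93 FPKM in Nrn1+/- cells. Batf, an AP-1 factor and the most abundant of the 13, had 212 FPKM in Nrn1-/- and 147 FPKM in Nrn1+/- cells. Stat5a, which relays interleukin-2 signals, had 141 FPKM in Nrn1-/- and 116 FPKM in Nrn1+/- cells. Runx3 was at 28.7 FPKM in Nrn1-/- and 22.2 FPKM in Nrn1+/- cells, within 1.5-fold.

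Of 9 tested genes that prepare granzymes and perforin, 5 were higher, against 52.3% of all genes, and 4 lower. None passed 1.5-fold, and their median log2 ratio was 0.00. Calr, encoding calreticulin, which binds perforin in the endoplasmic reticulum, came closest, with 523 FPKM in Nrn1-/- and 369 FPKM in Nrn1+/- cells. M6pr, a mannose 6-phosphate receptor that sorts granzymes to granules, had 136.6 FPKM in Nrn1-/- and 126 FPKM in Nrn1+/- cells. Ctsc, the cathepsin that activates granzymes by removing a dipeptide, had 41.1 FPKM in Nrn1-/- and 35.3 FPKM in Nrn1+/- cells. Its inhibitor Cst7, cystatin F, had 80.8 FPKM in Nrn1-/- and 86.5 FPKM in Nrn1+/- cells. The ratio of Gzmb to Ctsc was 3.76 in Nrn1-/- and 2.95 in Nrn1+/- cells.

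Of 20 tested genes of granule transport and exocytosis, 8 were higher, against 52.3% of all genes, and 12 lower. The median log2 ratio was -0.08. Snap23, a membrane fusion protein of the target membrane, was the 1 past 1.5-fold, at 22.7 FPKM in Nrn1-/- and 39.2 FPKM in Nrn1+/- cells. Of all genes tested, 5.27% were at least 1.5-fold lower. Rab7, a small GTPase of late endosomes and lysosomes, had 154.8 FPKM in Nrn1-/- and 121 FPKM in Nrn1+/- cells. Vamp8, a vesicle fusion protein, had 105 FPKM in Nrn1-/- and 121 FPKM in Nrn1+/- cells. Several genes of this list whose loss impairs granule release in inherited haemophagocytic disease were expressed in both libraries. Unc13d was at 59.8 FPKM in Nrn1-/- and 58.6 FPKM in Nrn1+/- cells, and Stx11 at 55.8 FPKM in Nrn1-/- and 55.4 FPKM in Nrn1+/- cells. Rab27a was at 40.3 FPKM in Nrn1-/- and 34.97 FPKM in Nrn1+/- cells, and Stxbp2 at 77.4 FPKM in Nrn1-/- and 90.6 FPKM in Nrn1+/- cells.

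Related inhibitors and the targets of granzyme B were read next. Of the 11 other clade B serpin genes 6 were listed at 0 in both libraries and 3 were tested, none of them past 1.5-fold. Serpinb6a had 28.9 FPKM in Nrn1-/- and 26.6 FPKM in Nrn1+/- cells, and Serpinb6b 15.9 FPKM in Nrn1-/- and 10.98 FPKM in Nrn1+/- cells. The third, Serpinb1a, had 1.35 FPKM in Nrn1-/- and 2.45 FPKM in Nrn1+/- cells, 1.82-fold lower as plain FPKM but within 1.5-fold on the log2 scale (-0.56) owing to the pseudocount. All 5 genes for granzyme B substrates were higher in Nrn1-/- cells, against 52.3% of all genes, and their median log2 ratio was 0.20. Parp1, a DNA repair enzyme cut during apoptosis, had 87.0 FPKM in Nrn1-/- and 61.4 FPKM in Nrn1+/- cells. None of 4 death ligand and receptor genes passed 1.5-fold on the log2 scale. The receptor gene Fas lay at the limit, with 24.6 FPKM in Nrn1-/- and 37.3 FPKM in Nrn1+/- cells, 1.52-fold lower as plain FPKM and -0.58 with the pseudocount. Tnfsf10, which encodes the ligand TRAIL, had 16.0 FPKM in Nrn1-/- and 14.97 FPKM in Nrn1+/- cells. At a sum of 1000000, where all genes centred on -0.25, the medians were -0.08 for the substrates, -0.05 for the transcription factors, -0.28 for maturation and -0.30 for exocytosis, so the first 3 changed sign while the substrates and factors lay above that centre.

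**Figure D5:**
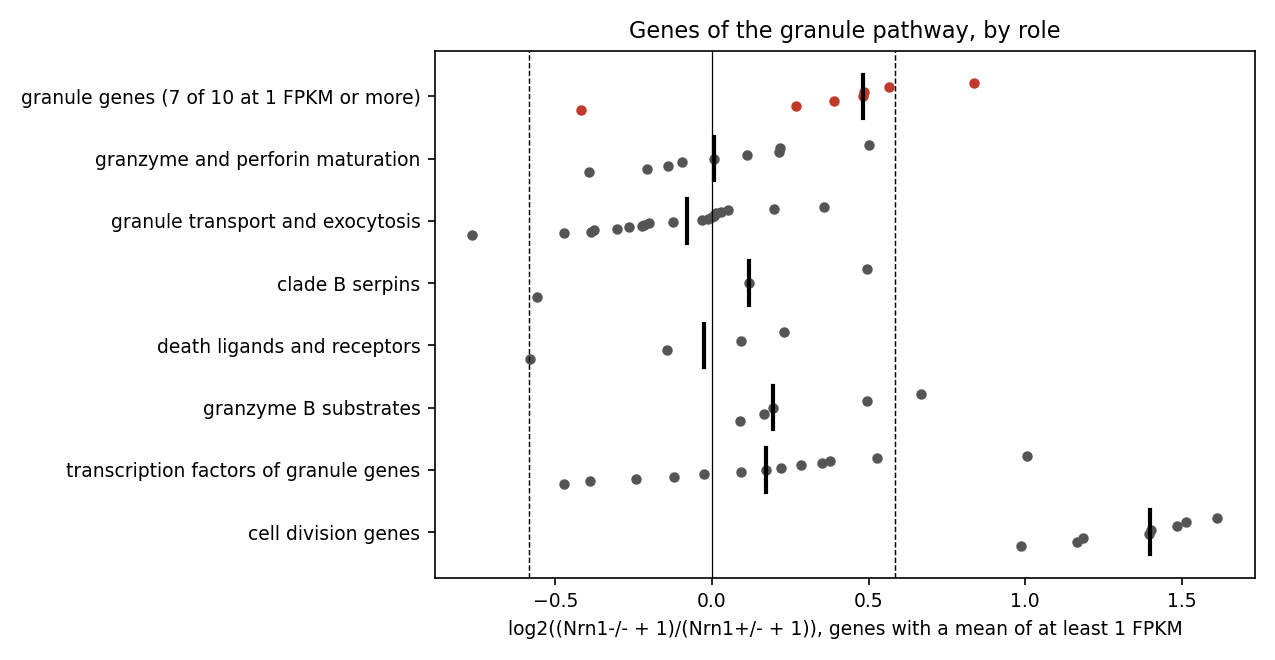
Log2 ratio of the Nrn1-/- over the Nrn1+/- library for each gene averaging 1 FPKM or more, by role, with a black bar at the median of each row and dashed lines at 1.5-fold. The granule genes have a median of 0.48, genes of maturation and exocytosis centre on 0.00 and -0.08, and all 8 cell division genes lie beyond 1.5-fold higher.

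Cells other than Treg cells can carry granzymes, so their markers were read beside the granule genes. The 13 NK cell markers summed to 25.1 FPKM in Nrn1-/- and 30.8 FPKM in Nrn1+/- cells, with Fcer1g as the highest (12.0 FPKM in Nrn1-/- and 17.9 FPKM in Nrn1+/- cells). None of the 13 was at 0, and none of the 6 tested passed 1.5-fold on the log2 scale. Of those 6, 3 were higher (Klrd1, Klrk1 and Eomes) and 3 lower (Ncr1, Tyrobp and Fcer1g), and Fcer1g outweighed the others in the sum. The receptor gene Klrk1 was at 2.31 FPKM in Nrn1-/- and 2.06 FPKM in Nrn1+/- cells, and the receptor gene Ncr1 at 0.810 FPKM in Nrn1-/- and 1.45 FPKM in Nrn1+/- cells. Ncr1 was thus 1.78-fold lower as plain FPKM, and its log2 ratio was -0.43 owing to the pseudocount. Both CD8 markers summed to 3.93 FPKM in Nrn1-/- and 4.92 FPKM in Nrn1+/- cells, most of it from Cd8b1 (3.45 FPKM in Nrn1-/- and 4.65 FPKM in Nrn1+/- cells). Cd8a ran the other way, at 0.484 FPKM in Nrn1-/- and 0.276 FPKM in Nrn1+/- cells. The 10 mast cell and basophil markers summed to 3.04 FPKM in Nrn1-/- and 4.603 FPKM in Nrn1+/- cells. Most of that was Kit, at 2.39 FPKM in Nrn1-/- and 4.16 FPKM in Nrn1+/- cells, a log2 ratio of -0.61. Hdc alone ran the other way, at 0.618 FPKM in Nrn1-/- and 0.153 FPKM in Nrn1+/- cells. Mcpt4, Mcpt8, Tpsab1 and Tpsb2 were listed at 0 in both libraries. The 9 myeloid markers, led by Lyz2 (0.448 FPKM in Nrn1-/- and 0.599 FPKM in Nrn1+/- cells), summed to 0.820 FPKM in Nrn1-/- and 1.31 FPKM in Nrn1+/- cells, with S100a8 and S100a9 listed at 0 in both. The 5 B cell markers, led by Cd79b (5.14 FPKM in Nrn1-/- and 4.85 FPKM in Nrn1+/- cells), summed to 7.24 FPKM in Nrn1-/- and 5.79 FPKM in Nrn1+/- cells. All 8 cell division genes (Mki67, Top2a, Cdk1, Ccnb1, Plk1, Ccna2, Birc5 and Aurkb) passed 1.5-fold higher, against 7.5% of all genes. Their median log2 ratio was 1.40. The smallest ratio was that of Mki67, at 53.8 FPKM in Nrn1-/- and 26.6 FPKM in Nrn1+/- cells. The largest was that of Ccnb1, at 56.2 FPKM in Nrn1-/- and 17.7 FPKM in Nrn1+/- cells. The part of these cells or of cell division in the granule gene values was not tested.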

How the data were processed

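The authors deposited 1 FPKM value per gene and library. No header names the unit, which was read from the values and from the tool Cuffnorm. It is listed in the submitters' processing notes with TopHat, Cuffdiff and FastQC and the builds mm10 and GRCm38. No source used here states how libraries were scaled to each other, and 4 other scalings were tried because differences may depend on it. Summed FPKM was 790935 in the Nrn1-/- and 645876 in the Nrn1+/- library. Protein-coding genes held 647545 of it in the Nrn1-/- and 593035 in the Nrn1+/- library, so the remaining genes differed more. Groups came from the genotype labels. The 82 symbols with several rows were summed, none of them a granule gene. Each log2 ratio is Nrn1-/- over Nrn1+/-, after adding 1 FPKM to both, and so understates differences of low genes. Quoted folds are plain FPKM ratios with no pseudocount, while the limit of 1.5-fold is set on the log2 scale. Of 46398 symbols, 12344 averaged 1 FPKM or more and are the genes called tested. Positions and transcript lengths came from GENCODE M21 on GRCm38, which matched 46000 of 46511 identifiers. The worth of 1 fragment was found from low values of single-transcript genes (418 genes, 190 bases taken off the length, in the Nrn1-/- library, and 455 genes, 215 bases, in the Nrn1+/- library). Intervals at 95% are exact Poisson for levels and exact conditional binomial for ratios. Without molecular identifiers, fragments need not be independent molecules. A value of 0 was read only as listed at 0. The log2 ratio code was checked only against its own formula, and the recovery of the fragment step on simulated fragments. No other calculation was tested in this way. Python 3.11.15, pandas 2.3.3, scipy 1.17.1 and Biopython 1.88 were used.

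The genes and lists were chosen with earlier results of these data known. Named were all 10 granule genes, Nrn1, every listed gene past 1.5-fold, the 2 highest genes per list and the highest marker per cell type with markers at 0, except 1 gene that is not reported here. Foxp3, Eomes, Runx3, Ctsc, Cst7, Unc13d, Stx11, Rab27a, Stxbp2, Mki67, Ccnb1 and the chromosome 14 genes were added for their roles. Serpinb1a, Cd8a, Hdc, the 6 tested NK markers and the 5 lower transcription regulators were added after their values were seen. Vamp7, on the exocytosis list, had no row. With 1 library per genotype, no library could be left out.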

Additional observations from a re-analysis of the deposited data

How the results depend on the processing

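The granule genes at least 1.5-fold higher numbered 1 as deposited, 2 with a pseudocount of 0.1 FPKM, where Prf1 joined Gzma, and 0 at a threshold of 2-fold. Those at least 1.5-fold lower numbered 0 as deposited and 1, Srgn, at a sum of 1000000. Of 54 other tested genes of the granule pathway, 2 were higher, against 7.5% of all genes, and 1 lower, against 5.27%. Higher were 1 at a sum of 1000000 (of 55 tested; 3.27% of all genes), 1 with equal sums over protein-coding genes (4.91%) and 1 at 2-fold (1.98%). Lower were 3 with the pseudocount of 0.1 FPKM (7.87% of all genes), 2 with upper-quartile scaling (5.61%), 2 after centring on the median (5.78%), 5 with equal coding sums (8.84%), 9 at a sum of 1000000 (17.6%) and 0 at 2-fold (1.11%). Gzma stayed past 1.5-fold under each scaling, at 0.60 to 0.82. With no filter on low values 7 of the 10 granule genes were higher and 3 lower. Their median log2 ratio was 0.33, against -0.01 over all genes at that setting. The share of all genes that were higher is not given without the filter, so this count has no background. Depth limits Gzmf, Gzmk and Gzmm, whose ratio intervals span 1. No paired analysis was possible because each genotype has 1 library.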
